A study of Homo sapiens with 46 samples.

Results

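The genes of cholesterol synthesis and of the sterol regulatory element-binding proteins (SREBPs) were followed as 1 module of 31 genes in RNA-seq libraries of HEK293T cells in which single mitochondrial mRNAs were silenced. The 31 genes were taken by symbol from a list of enzymes, regulators and transporters. All 31 were among the 58735 genes of the deposited count table, and all 31 were among the 20272 genes with enough counts to be tested. They were kept in a sterol branch of 25 genes and a fatty acid branch of 6 genes.

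HEK293T is a transformed line of human embryonic kidney origin, and each group here was wild type in genotype. A chimera joins the pCox4 mitochondrial targeting presequence to a morpholino, an uncharged antisense oligomer that binds 1 mitochondrial DNA (mtDNA)-encoded mRNA and blocks its use. Cells received EndoPorter, a peptide that delivers cargo into cells, and 2 µM of a chimera against ATP6, ATP8, COX1, COX2, COX3, CYTB, ND1, ND2, ND3, ND4L or ND5, and were lysed after 48 h. The control group was given the pCox4 presequence in click reaction buffer with no morpholino, so it holds no chimera of unrelated sequence. The study calls the libraries of a group biological replicates, all of them of 1 cell line. Replicates 1 and 2 (batch 1) and replicates 3 and 4 (batch 2) were, by the study's methods, treated on different days with different reagents, and each group had 4 libraries except COX2 (no replicate 1) and ND2 (no replicate 2).

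SREBPs are transcription factors made as membrane proteins of the endoplasmic reticulum: when sterols are low, the escort protein SCAP carries them to the Golgi for proteolytic release, and when sterols are high, INSIG proteins hold SCAP back. SREBP-2 acts mainly on genes of cholesterol synthesis and SREBP-1 mainly on genes of fatty acid synthesis and desaturation, with much overlap. Cholesterol is built in the cytosol and endoplasmic reticulum from acetyl-CoA, much of which derives from citrate exported by mitochondria.

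The 46 libraries held between 18876395 and 100698084 counts in genes (median 23413171). COX3 replicate 4 was the deepest, and the next held 28121898. COX1 replicate 4 held the fewest counts. mtDNA-encoded genes took 3.80 to 5.34% of counts. A morpholino can block translation without lowering its mRNA. ATP8 and ATP6 lie on 1 bicistronic mRNA by the study, and their counts were taken as separate genes. Of the 11 targeted genes, 6 passed the test in the cells treated against them. MT-CO1, MT-CO3 and MT-CYB were lower (log2 fold changes −1.33, −0.49 and −0.33), and MT-ND1, MT-ND2 and MT-ND3 were higher (0.79, 1.02 and 0.80). Of 6 genes known from HEK293 cells, VIM, KRT8, KRT18, INA and PAX2 were at or above 4.81 CPM (counts relative to library size) in all libraries, and NEFM was at 0.451 to 2.00 CPM. CPM in this paragraph were not TMM-scaled, and per-library CPM of members below were. Each of 6 markers of leukocytes, hepatocytes, endothelium and heart muscle was at or under 0.713 CPM.

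The 31 genes spanned a wide range of levels. Levels between genes are given as reads per kilobase of the deposited gene length and library size (RPKM), as mean ± SD over all 46 libraries. FASN, the multi-domain enzyme that builds palmitate, had the highest level (157 ± 16.8 RPKM), followed by SCD, the desaturase that makes oleate from stearate (123 ± 15.5). INSIG1 (49.3 ± 5.04), HMGCS1 (44.4 ± 6.37), IDI1 (42.3 ± 5.41) and FDFT1 (42.1 ± 2.98) formed the next level, and the last 3 of these differed by less than 1 SD. At the low end stood SREBF1 (5.35 ± 0.920), CYP51A1 (5.04 ± 0.753), MVK (4.61 ± 0.328) and HSD17B7 (3.69 ± 0.368), of which SREBF1 and CYP51A1 lay within 1 SD of each other. The lowest raw count of any member in any library was 253, for CYP51A1.

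Some members share sequence with other genes, and the use of strand in counting is not given in the sources used here. CPM in this paragraph were taken from counts pooled over all libraries, without TMM scaling. Of the CYP51A1 exon bases, 79.4% are also those of the same-strand gene AC000120.2, which had 0.00691 CPM, and 37.3% of GGPS1 exon bases overlap TBCE (7.29 CPM) on the same strand. ACAT2 shares 9.23% of its exon bases with the far more abundant TCP1 (527 CPM) on the opposite strand, and SREBF1 6.92% with RAI1 (81.2 CPM). HSD17B7 (17.7 CPM) has 2 pseudogenes with a summed level of 2.95 CPM, and reads could be split between these copies.

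The promoters of the module carried 1 shared feature that the choice of genes did not use. RefSeq promoters of GRCh38.p14, from 250 bases before to 50 bases after a transcript start, were at hand for 27 of the 31 genes, and ACAT2, FDFT1, SQLE and FASN were not matched. The letters CCAAT, the box bound by the factor NF-Y, which is known to act with SREBPs, stood on either strand in 20 of 27 genes (74.1%), against 39.7% of the 27305 genes in the table. By branch the count was 17 of 22 sterol genes and 3 of 5 fatty acid genes. The letters TCACNCCAC, a common form of the sterol regulatory element, stood in 1 of 27 genes, SREBF2, against 1.39% of all genes. SREBF2 also held 1 CCAAT, which did not overlap TCACNCCAC, and many sterol regulatory elements deviate from this form. The sequences below are 30-base windows of 7 members whose values are described next, written 5′ to 3′ on the gene's strand with the motif in capitals, where ATTGG is CCAAT read on the opposite strand.
SREBF2 (chr22:41832962-41832991, plus strand): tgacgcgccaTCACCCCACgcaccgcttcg
HMGCS1 (chr5:43313495-43313524, minus strand): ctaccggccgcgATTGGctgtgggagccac
IDI1 (chr10:1048956-1048985, minus strand): ctggcgcgagcgATTGGctgcgcggcccgg
INSIG1 (chr7:155297696-155297725, plus strand): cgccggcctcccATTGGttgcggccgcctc
STARD4 (chr5:111512648-111512677, minus strand): ctcccgcgccagCCAATccgaacaagcgca
MSMO1 (chr4:165327472-165327501, plus strand): gcggtgccgaccATTGGctggctctgcagg
SCD (chr10:100346992-100347021, plus strand): gattgcgccgagCCAATggcaacggcagga
The SREBF2 window is the one match to TCACNCCAC, 133 bases before the start. The other windows show CCAAT at 100 bases (HMGCS1), 87 bases (IDI1) and 170 bases (INSIG1) before the start, and MSMO1 held 4 such matches. A match is a description of the letters, not of a bound site.

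The main comparison asked whether silencing of a mitochondrial mRNA altered this module. No member passed the test in any treatment (edgeR quasi-likelihood test with Benjamini-Hochberg adjustment over 20272 genes): 0 of 341 tests of 31 genes in 11 treatments had an adjusted p under 0.05 (called, below), where 0.171% of the tests of all genes did. Over all genes 0.00987, 0.0641, 0.0543, 0.469, 0.306, 0.548, 0.0888, 0.0247, 0.00987, 0.148 and 0.158% were called in ATP6, ATP8, COX1, COX2, COX3, CYTB, ND1, ND2, ND3, ND4L and ND5, in this order. Fitted log2 fold changes of members ran from −0.35 to 0.35, with a median SE of 0.069. The 95% interval lay within 1.5-fold of the control in 340 of the 341 tests. Below this threshold the signs were uneven. An unadjusted p under 0.05 was reached in 80 of 341 tests, 66 of them with a lower and 14 with a higher estimate. The corresponding share was 23.5% for the members and 9.79% over all genes (4.41% of all tests were lower). The median SE over all genes was 0.11, so these shares rest on estimates of unlike precision. The median estimate of the sterol genes per treatment ran from −0.061 (COX2) to 0.040 (CYTB) and that of the fatty acid genes from −0.13 (ND1) to −0.029 (ND5), while the median of all genes stayed between −0.0032 and 0.0040. By branch the tests with an unadjusted p under 0.05 were 59 of 275 sterol tests (45 lower) and 21 of 66 fatty acid tests (21 lower). The 11 treatments share 4 control libraries, so the 11 estimates of a gene are not independent of each other. In bulk RNA, a lower level per cell and a smaller share of cells with the transcript cannot be told apart.

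**Figure D1:**
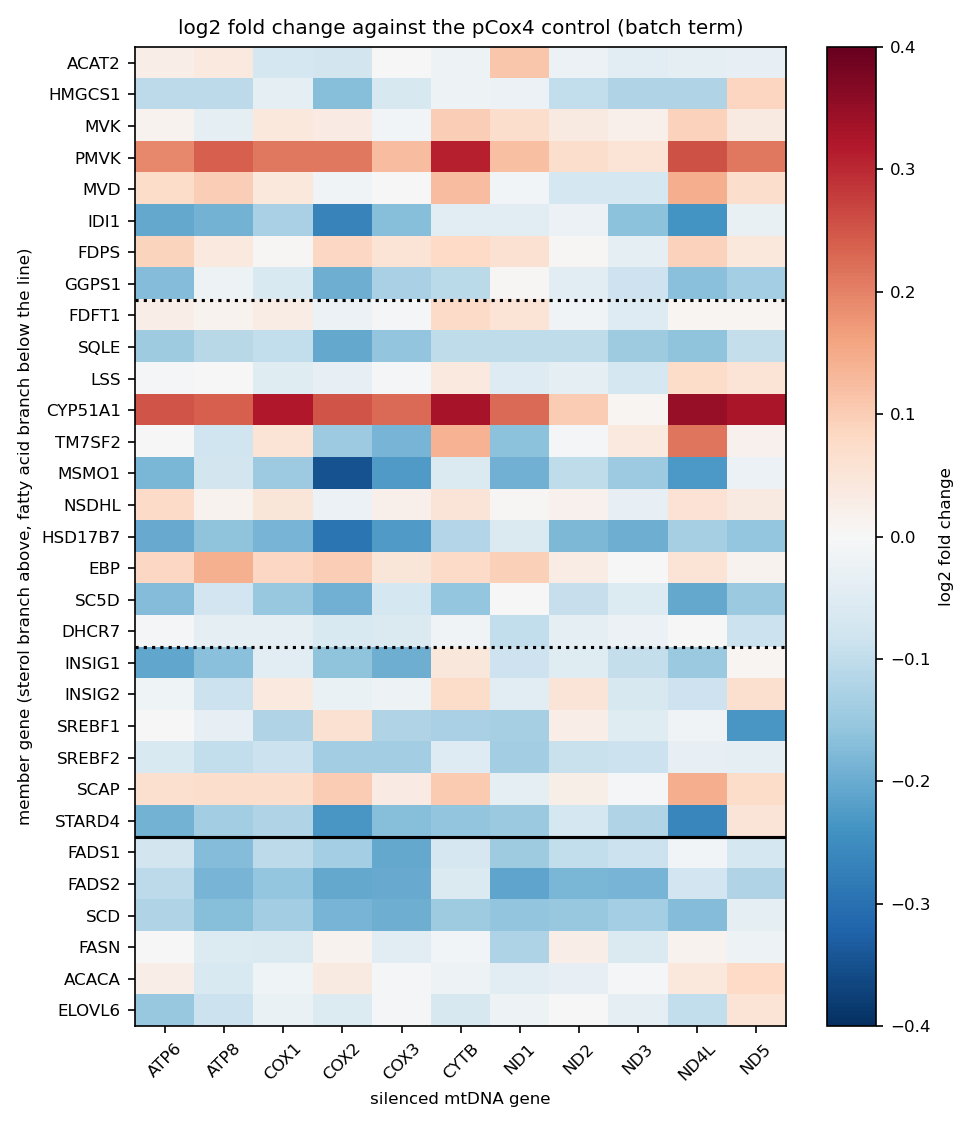
Log2 fold change of each of the 31 genes (rows, ordered by role, dotted lines between roles) in each of the 11 treatments (columns) against control, from the fit with batch; the colour scale gives the log2 fold change. No cell passed the test. SCD, FADS2, SQLE and MSMO1 are below 0 in all 11 columns, and PMVK and CYP51A1 are above 0 in all 11.

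The member with the lowest p differed between treatments. It was MSMO1 in COX2, STARD4 in ND4L, PMVK in CYTB, INSIG1 in ATP6 and SREBF1 in ND5, each described in turn below. SCD had the lowest p in COX3, in ATP8 with −0.17 (SE 0.057, adjusted p = 0.246), and in ND2 with −0.15 (SE 0.062, adjusted p = 0.998). For FADS2 this was the case in ND1, and in ND3 with −0.19 (SE 0.074, adjusted p = 1.00). In COX1 it was CYP51A1, 0.32 (SE 0.13, 95% interval 0.068 to 0.57, adjusted p = 0.559), with 3 of 4 libraries above the controls of the batch. Under 21 other settings between 0 and 11 of the 341 tests were called, the highest number without a filter on low counts, where 0.416% of the tests of all genes were called. MSMO1 in COX2 was called under 5 of these settings and STARD4 in ND4L under 3.

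Enzymes of the mevalonate pathway turn acetyl-CoA into isoprenoid units. In the 8 genes of this segment no estimate passed the test. HMGCS1 (hydroxymethylglutaryl-CoA synthase, ENSG00000112972, chr5:43289395-43313512, minus strand) was at 203 and 187 CPM in batch 1 and 238 and 238 CPM in batch 2 in the 4 control libraries. Treated libraries held 167 to 201 CPM (median 185) in batch 1 and 186 to 280.3 CPM (median 227) in batch 2. Most treated libraries were at or under the controls of their batch: 14 of 20 lay under both batch 1 controls and 15 of 22 under both batch 2 controls, with COX1 replicate 4 the highest of all. The lowest estimate was in COX2, −0.17 (SE 0.077, 95% interval −0.32 to −0.015, adjusted p = 0.317), and ND5 had the only estimate above 0, 0.087. The 2 batch 2 libraries of ND5 held 273 and 276 CPM, above both controls.

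IDI1 (isopentenyl-diphosphate isomerase, ENSG00000067064, chr10:1039152-1049170, minus strand) was at 203 and 179.6 CPM in batch 1 and 208 and 207 CPM in batch 2 in control cells, and its 11 estimates were all below 0, from −0.27 to −0.024. The lowest was in COX2, −0.27 (SE 0.10, adjusted p = 0.190), whose 3 libraries held 165, 149 and 192 CPM. All 3 were below both controls of their batch. In batch 1, 14 of 20 treated libraries were under both controls, and in batch 2, 15 of 22 were, while 7 were above both, led by COX1 replicate 4 at 254 CPM. ACAT2, the cytosolic thiolase that opens the pathway (ENSG00000120437, chr6:159760328-159779055, plus strand), kept close to control, with estimates from −0.072 to 0.11 and no unadjusted p under 0.05 in any treatment. Its control libraries held 91.3 and 89.2 CPM in batch 1 and 79.2 and 82.4 CPM in batch 2, and treated libraries 79.6 to 96.8 CPM (median 89.2) and 71.9 to 92.2 CPM (median 80.9) in the same order.

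PMVK (phosphomevalonate kinase, ENSG00000163344, chr1:154924734-154936991, minus strand) was the member of this segment with estimates above 0 in all 11 treatments, from 0.053 to 0.31, and with an unadjusted p under 0.05 in 6 of them. Its control libraries were unequal between batches, at 24.5 and 24.4 CPM in batch 1 and 19.8 and 18.4 CPM in batch 2. Treated libraries held 20.6 to 30.8 CPM (median 24.6) in batch 1 and at least 20.7 CPM (median 24.9) in batch 2. In batch 1 treated libraries lay on both sides of the controls (10 of 20 above both, 9 below both), whereas in batch 2 all 22 of 22 were above both. CYTB had the lowest adjusted p, with an estimate of 0.31 (SE 0.10, 95% interval 0.12 to 0.50, adjusted p = 0.111). Its libraries held 30.8, 27.4, 24.0 and 25.8 CPM, each higher than both controls of the same batch. Fitted on batch 2 alone, the PMVK estimate in ND4L was 0.55 (edgeR adjusted p = 0.0303), the one member call within a batch, against −0.035 on batch 1 alone.

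The remaining estimates of this segment spanned −0.20 to 0.15 for MVK, MVD, FDPS and GGPS1. MVK, the mevalonate kinase that precedes PMVK, had no unadjusted p under 0.05, and neither did MVD, the decarboxylase that follows it, nor FDPS, which joins isoprenoid units to farnesyl diphosphate. GGPS1, which makes geranylgeranyl diphosphate outside the sterol route, reached it in 3 treatments, all with lower estimates.

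The 11 enzymes from squalene to cholesterol also gave no call. MSMO1, the C4-methylsterol oxidase (ENSG00000052802, chr4:165327623-165343160, plus strand), had the lowest adjusted p of the whole module. Control libraries held 59.9 and 63.7 CPM in batch 1 and 63.4 and 62.9 CPM in batch 2. COX2 libraries held 52.9, 40.8 and 54.8 CPM for replicates 2, 3 and 4, all 3 of them under the 4 controls, with replicate 3 the lowest of the 46 libraries. The estimate in COX2 was −0.35 (SE 0.10, 95% interval −0.54 to −0.16, adjusted p = 0.0708). Libraries and controls were compared for overlap as log2 CPM minus the mean of the 2 controls of the same batch. In this measure MSMO1 did not overlap with control in 7 of 11 treatments, where 8.29% of the tests of all genes did not, in either direction. The 11 comparisons share the same 4 control libraries, so these 7 are not independent of each other. MSMO1 estimates ran from −0.35 to −0.025, and in the 20 treated libraries of batch 1, 19 were below both controls.

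SQLE (squalene epoxidase, a slow step of the pathway, ENSG00000104549) was at 142 and 126 CPM in batch 1 and 151 and 154 CPM in batch 2 in control cells. Treated libraries held 111 to 133 CPM (median 124) in batch 1 and 117 to 164 CPM (median 139) in batch 2. In batch 2, 21 of 22 were below both controls and COX1 replicate 4 alone was above, and in batch 1, 13 of 20 were below both and none above. Estimates were narrow in range, −0.20 to −0.10, with an unadjusted p under 0.05 in 5 treatments and the lowest adjusted p in COX2, −0.20 (SE 0.065, adjusted p = 0.131).

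CYP51A1 (lanosterol 14α-demethylase, ENSG00000001630, chr7:92112151-92134803, minus strand) showed the same split between batches as PMVK. Control libraries held 16.7 and 16.6 CPM in batch 1 and 14.1 and 14.0 CPM in batch 2, and treated libraries 12.5 to 21.0 CPM (median 17.4) in batch 1 and 15.6 to 26.4 CPM (median 18.5) in batch 2. All 22 treated libraries of batch 2 were above both controls, while in batch 1 10 of 20 were above and 9 below. Its 11 estimates were above 0, from 0.0093 to 0.35, and the largest was in ND4L, 0.35 (SE 0.13, 95% interval 0.10 to 0.60, adjusted p = 0.191). A term for a treatment effect that differs between batches was 0.39 (SE 0.18, unadjusted p = 0.0383, edgeR adjusted p = 0.982) for CYP51A1 and 0.38 (SE 0.14, unadjusted p = 0.00758, edgeR adjusted p = 0.982) for PMVK. Over all 20272 genes this term, added after seeing the data, was called in 0 (0%) and had an unadjusted p under 0.05 in 4.78%, against 3 of the 31 members (PMVK, CYP51A1 and LSS).

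SC5D, the C5-desaturase (ENSG00000109929, chr11:121292453-121308694, plus strand), was at 84.6 and 101 CPM in batch 1 and 88.5 and 85.6 CPM in batch 2 in control cells. Treated libraries held 78.4 to 106 CPM (median 87.8) in batch 1 and 71.1 to 90.3 CPM (median 76.6) in batch 2. In batch 2 20 of 22 were below both controls, and in batch 1 only 6 of 20 were, within a pair of controls that stood wide apart. An unadjusted p under 0.05 was reached in 6 treatments, all lower, and the lowest adjusted p was in ND4L, −0.20 (SE 0.067, adjusted p = 0.151). TM7SF2, a sterol C14-reductase (ENSG00000149809, chr11:65111845-65116384, plus strand), varied with estimates on both sides of 0, from −0.19 to 0.22. COX3 libraries held 13.8, 15.6, 15.9 and 22.2 CPM and ND4L libraries 19.0, 17.2, 25.1 and 29.6 CPM, against 20.1 and 16.9 CPM in batch 1 and 20.8 and 19.5 CPM in batch 2 in control cells. ND4L replicate 4 was the highest of the 46 libraries, followed by COX1 replicate 4, and COX3 replicate 3 was the lowest of batch 2 while COX3 replicate 4 lay above its controls.

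Of the 6 remaining sterol enzymes, HSD17B7, a 3-ketosterol reductase, was singled out after its values were seen. Its estimates were below 0 in all 11 treatments, from −0.29 to −0.058, with 18 of 20 treated libraries below both controls in batch 1 and 20 of 22 in batch 2. Its reads may be shared with the pseudogenes named above. FDFT1 (squalene synthase), LSS (lanosterol synthase), NSDHL (a dehydrogenase of sterol demethylation), EBP (a sterol isomerase) and DHCR7 (the reductase of the last step of one route) stayed between −0.10 and 0.14 in all treatments, and an unadjusted p under 0.05 was reached in 1 treatment each by EBP (higher) and DHCR7 (lower).

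The 6 regulators and transporters of the sterol branch gave no call either. INSIG1, the SREBP target that retains SCAP in the endoplasmic reticulum (ENSG00000186480, chr7:155297776-155310235, plus strand), was at 191 and 173 CPM in batch 1 and 194 and 205 CPM in batch 2 in control cells. Treated libraries held 138 to 191 CPM (median 169) in batch 1 and 156 to 228 CPM (median 189) in batch 2. ATP6 replicate 2 was the lowest of all libraries and COX1 replicate 4 the highest. CYTB libraries held 191, 168, 217 and 214 CPM, and those of batch 2 were above both controls. Of the 11 estimates, 9 were below 0 and those of CYTB and ND5 above (0.045 and 0.0064). ATP6 had the lowest estimate, −0.21 (SE 0.068, adjusted p = 0.373), and COX3 the lowest adjusted p, −0.20 (SE 0.068, adjusted p = 0.233). INSIG2, its less abundant relative, had no unadjusted p under 0.05.

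STARD4, a soluble sterol carrier (ENSG00000164211, chr5:111496033-111512590, minus strand), gave the second lowest adjusted p of the module. Control libraries held 65.1 and 67.2 CPM in batch 1 and 72.8 and 78.8 CPM in batch 2. ND4L libraries held 54.0 and 57.5 CPM in batch 1 and 62.0 and 63.3 CPM in batch 2, all 4 below the 4 controls. The estimate was −0.26 (SE 0.072, 95% interval −0.40 to −0.12, adjusted p = 0.0856). ND5 libraries held 69.7, 60.0, 83.9 and 81.6 CPM, the highest library of either batch among them, and ND5 had the only estimate above 0, 0.052 (SE 0.071, adjusted p = 0.878). Among all treated libraries, 19 of 20 in batch 1 and 15 of 22 in batch 2 were below both controls. In ND4L, 6 of 25 sterol genes did not overlap with control, all lower, beside 8.86% of all genes in either direction. In COX2, which has 3 libraries, 9 of 25 did not overlap (7 lower), beside 16.9% of all genes in either direction. The share of all genes that were lower was not taken.

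SREBF1, which encodes SREBP-1 (ENSG00000072310, chr17:17810399-17837002, minus strand), was at 43.3 and 35.4 CPM in batch 1 and 50.8 and 48.3 CPM in batch 2 in control cells. ND5 libraries held 36.5 and 35.1 CPM in batch 1 and 38.5 and 40.0 CPM in batch 2. The 2 batch 2 libraries of ND5 were the lowest of that batch, while those of batch 1 lay near the lower control. The estimate in ND5 was −0.23 (SE 0.073, 95% interval −0.38 to −0.084, adjusted p = 0.207), the only one of SREBF1 with an unadjusted p under 0.05. After removal of the GC trend from each library, a setting chosen after seeing the data, SREBF1 was called in ND5 (−0.24, SE 0.049, edgeR adjusted p = 0.00674) and in CYTB (−0.21, SE 0.049, edgeR adjusted p = 0.0232). In ND5, 10 of 25 sterol genes and 4 of 6 fatty acid genes had estimates below 0.

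SREBF2, which encodes SREBP-2 (ENSG00000198911, chr22:41833079-41907308, plus strand), was at 206 and 182 CPM in batch 1 and 208 and 211 CPM in batch 2 in control cells. Treated libraries held 162 to 190.0 CPM (median 174) in batch 1, all at or below the higher control, and 177 to 226 CPM (median 208) in batch 2, about evenly on both sides of the controls. Its 11 estimates were below 0, from −0.14 to −0.033, with an unadjusted p under 0.05 in 3 treatments. SCAP, the escort of SREBPs (ENSG00000114650, chr3:47413694-47477126, minus strand), had 9 of 11 estimates above 0, from −0.039 to 0.15, and its lowest adjusted p was in ND4L, 0.15 (SE 0.057, adjusted p = 0.222). ND4L libraries of SCAP held 125, 109, 142 and 135 CPM against 114 and 97.3 CPM in batch 1 and 129 and 121 CPM in batch 2 in control cells, where the batch 1 controls stood apart from each other.

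In the fatty acid branch, all 6 genes had a median estimate below 0. SCD (ENSG00000099194, chr10:100347124-100364834, plus strand) had the lowest adjusted p of the branch. Its control libraries held 706 and 606 CPM in batch 1 and 769.6 and 787 CPM in batch 2. Treated libraries held 537 to 655 CPM (median 577) in batch 1 and 636 to 795 CPM (median 734) in batch 2. Below both controls of the batch lay 17 of 20 and 19 of 22 treated libraries, and ND5 replicate 4 alone was above both. The estimate was below 0 in all 11 treatments (−0.20 to −0.039), with an unadjusted p under 0.05 in 10, the exception being ND5. COX3 gave the lowest adjusted p, −0.20 (SE 0.057, 95% interval −0.31 to −0.082, adjusted p = 0.132), with libraries at 554, 541, 654 and 764 CPM. The ranges of treated and control libraries overlapped in both batches.

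FADS2, the front-end desaturase of polyunsaturated fatty acids (ENSG00000134824, chr11:61792980-61867354, plus strand), was at 103 and 78.9 CPM in batch 1 and 106 and 101 CPM in batch 2 in control cells. Treated libraries held 73.1 to 95.1 CPM (median 79.1) in batch 1, where 9 of 20 were below both controls and 0 above. In batch 2 they held 75.7 to 109 CPM (median 95.0), with 16 of 22 below both controls and 3 above. Its 11 estimates were below 0 (−0.21 to −0.057), 7 of them with an unadjusted p under 0.05, and the lowest adjusted p was in ND1, −0.21 (SE 0.074, adjusted p = 0.197). COX3 libraries of FADS2 held 77.0, 75.5, 75.7 and 109 CPM. The deepest library, COX3 replicate 4, was the highest of all, and the other 3 were among the lowest. FADS1, the neighbouring desaturase of the same pathway, singled out after its values were seen, also had 11 estimates below 0 (−0.20 to −0.010) and 19 of 20 batch 1 libraries below both controls, against 6 of 22 in batch 2.

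FASN (ENSG00000169710, chr17:82078333-82098332, minus strand) was at 1513 and 1312 CPM in batch 1 and 1657 and 1490.2 CPM in batch 2 in control cells and at 1114 to 1475 CPM (median 1361) and 1403 to 1759.7 CPM (median 1581) in treated cells of the same batches. Treated and control libraries were intermixed in both batches, estimates ran from −0.12 to 0.026, and no treatment had an unadjusted p under 0.05. ELOVL6, which elongates palmitate to stearate (ENSG00000170522, chr4:110045846-110199199, minus strand), was at 64.6 and 69.2 CPM in batch 1 and 69.7 and 72.6 CPM in batch 2 in control cells. ATP6 libraries of ELOVL6 held 59.6, 57.9, 64.9 and 66.9 CPM, all 4 below the controls of their batch, and the estimate was −0.15 (SE 0.051, adjusted p = 0.385). ACACA, acetyl-CoA carboxylase 1, had 7 estimates below and 4 above 0, from −0.062 to 0.081, and none with an unadjusted p under 0.05.

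**Figure D2:**
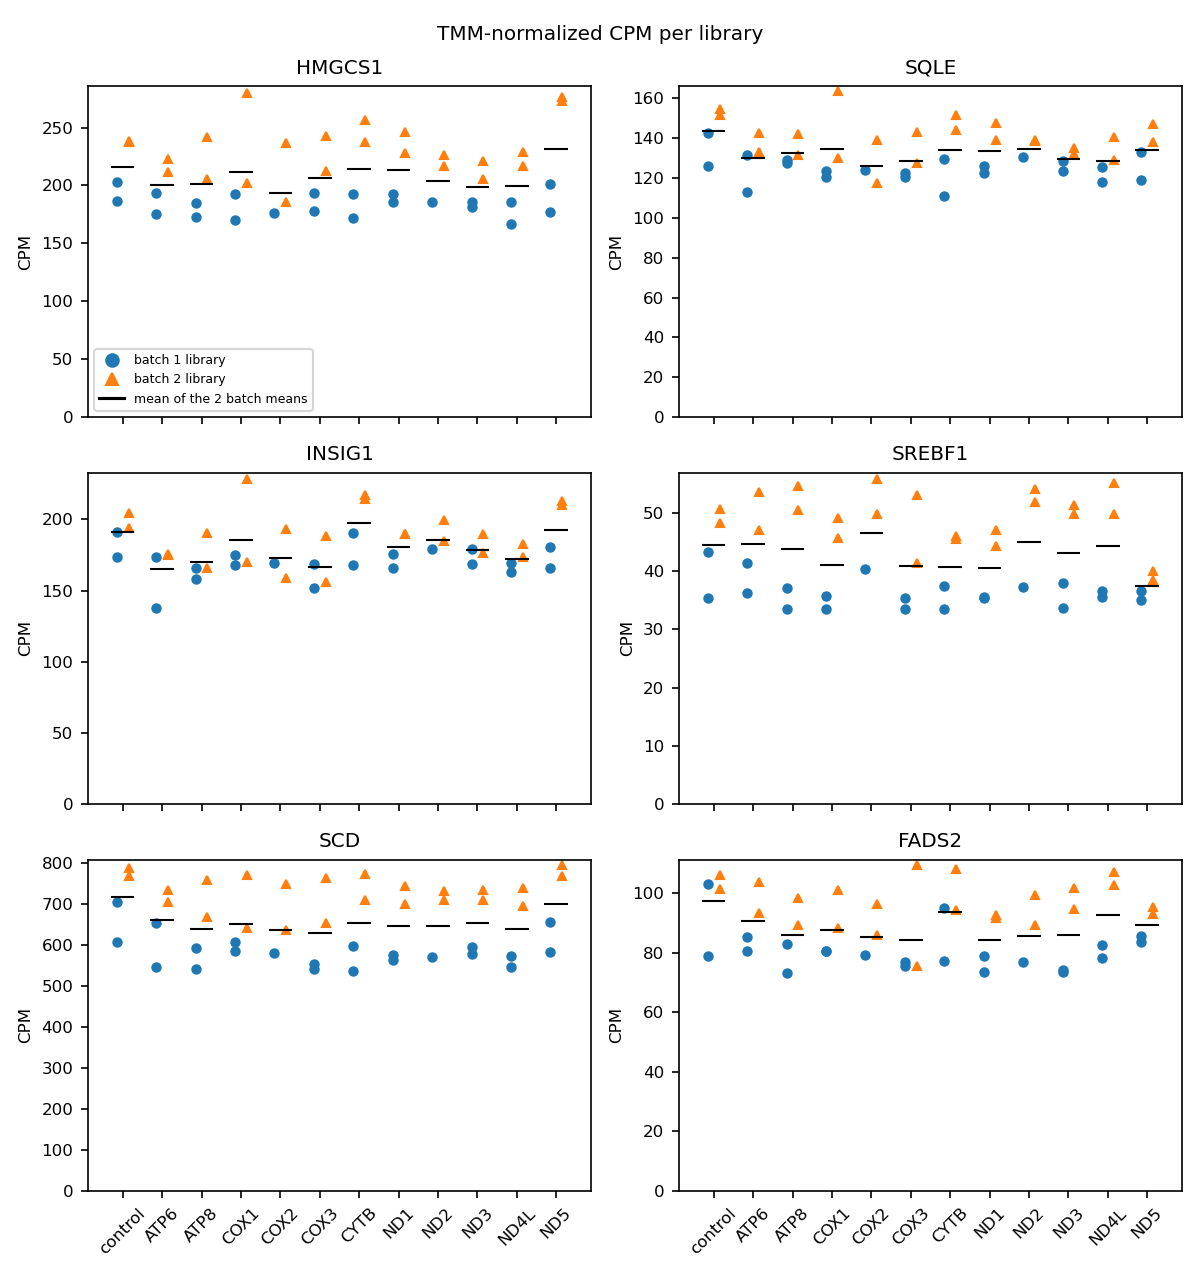
CPM per library of HMGCS1, SQLE, INSIG1, SREBF1, SCD and FADS2 (1 panel each, y axis in CPM, x axis the 12 groups); points are libraries, coloured by batch, and the line at each group is the mean of its 2 batch means. Libraries of batch 2 lie higher on average in each panel, and COX1 replicate 4 is the highest point of HMGCS1 (280.3 CPM), SQLE (164 CPM) and INSIG1 (228 CPM).

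The mean of the 11 treatments against control asked what the chimeras had in common. It called 0 of 31 members (edgeR, Benjamini-Hochberg), where 0.261% of all genes were called. The lowest adjusted p was that of SCD, with an estimate of −0.15 (SE 0.042, 95% interval −0.23 to −0.062, adjusted p = 0.104). SQLE followed with −0.13 (SE 0.044, adjusted p = 0.181) and FADS2 with −0.15 (SE 0.054, adjusted p = 0.194). An unadjusted p under 0.05 was reached by 12 of 31 members, 10 lower and 2 higher, against 11.9% of all genes (5.37% lower). The 2 higher were CYP51A1 (0.24, SE 0.10) and PMVK (0.18, SE 0.074). Besides SCD, SQLE and FADS2, the lower were STARD4, HSD17B7, MSMO1, SC5D, SREBF2, IDI1 and FADS1, between −0.17 and −0.088. SCD was called in this comparison under 4 of the 21 other settings and FADS2 under 1. Members with narrow intervals around 0 were ACACA (−0.079 to 0.079), ACAT2 (−0.094 to 0.071) and FDFT1 (−0.074 to 0.10). The control group is the same 4 libraries throughout, and in batch 1 control replicate 1 was higher than replicate 2 in HMGCS1, IDI1, SQLE, INSIG1, SREBF1, SREBF2, SCD, FASN and FADS2.

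A test across all 12 groups asked whether any group stood apart. It called 0 of 31 members, where 0.493% of all genes were called, and a test among the 11 treatments without control called 0 as well (0.306%). An unadjusted p under 0.05 across groups was reached by 8 members against 12.2% of all genes. These were INSIG1 (unadjusted p = 0.00324, edgeR adjusted p = 0.155), STARD4 (0.00344 and 0.161), TM7SF2 (0.00593 and 0.200), SREBF1, MSMO1, ELOVL6, SC5D and SCD. INSIG1, STARD4 and TM7SF2 were each called across groups under 4 of the 21 other settings.

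**Figure D3:**
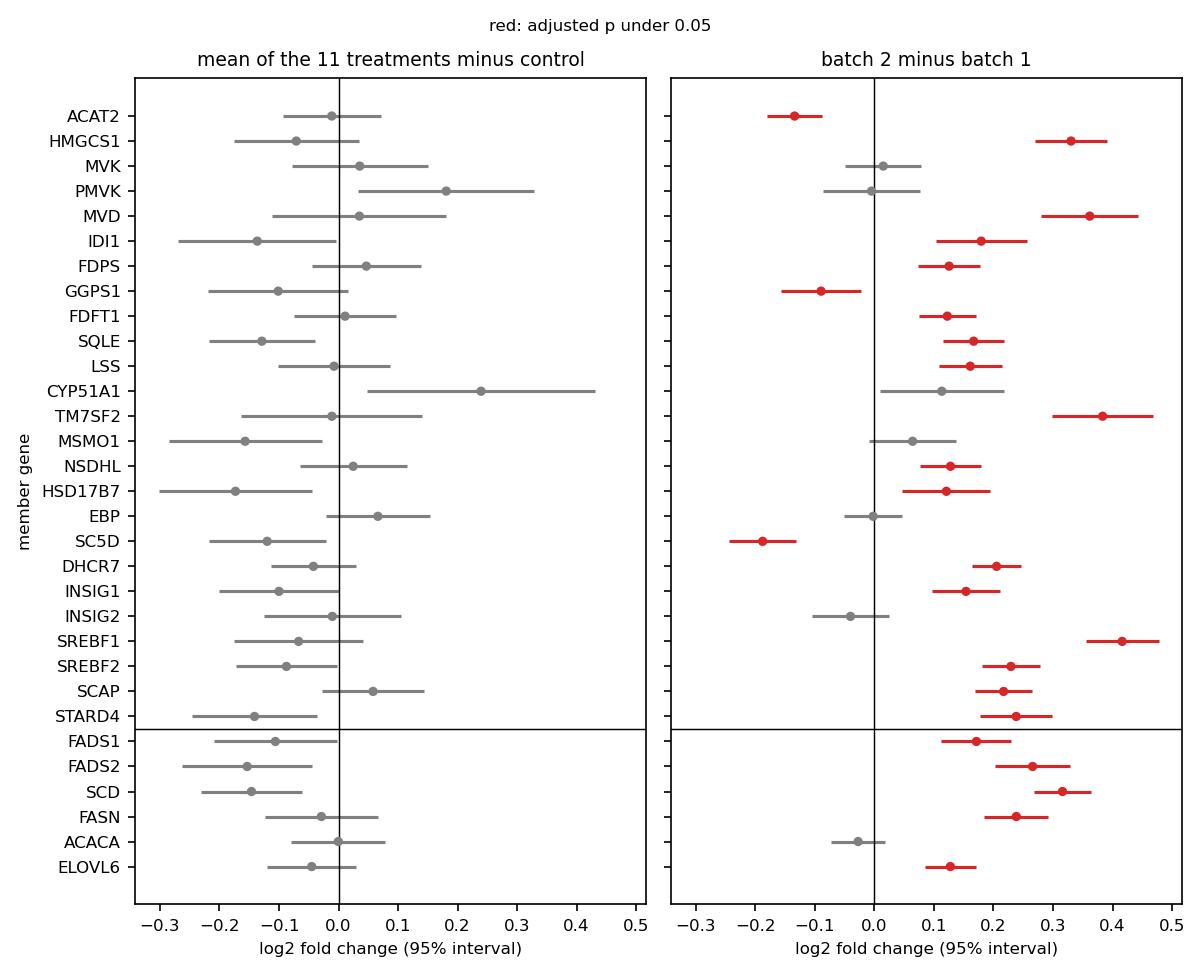
Log2 difference with 95% interval for each of the 31 genes, in 1 panel for the mean of the 11 treatments against control and in 1 panel for batch 2 against batch 1; red marks an edgeR adjusted p under 0.05. No gene is red for the treatments, and 24 are red for the batches, from SREBF1 at 0.42 to SC5D at −0.19.

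The 2 branches were also followed library by library, as the mean over the members of the log2 CPM difference from the 2 controls of the same batch. In the sterol branch, 19 of 20 treated libraries of batch 1 were below 0 (−0.12 to 0.012), and CYTB replicate 1 alone was above. In batch 2 the branch was spread around 0, with 8 of 22 treated libraries below and 14 above, from −0.13 in COX3 replicate 3 to 0.17 in COX1 replicate 4. The 2 batch 1 controls stood at 0.042 and −0.042 and those of batch 2 at 0.014 and −0.014. In the fatty acid branch all 20 treated libraries of batch 1 were below 0 (−0.26 to −0.0079), and 17 of 22 in batch 2 (−0.19 to 0.046). The batch 1 controls of this branch were at 0.072 and −0.072, so part of the treated range lay within the spread of the controls.

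The group means of the sterol branch lay between −0.064 ± 0.089 (SD, n = 4) in COX3 and 0.022 ± 0.062 (SD, n = 4) in CYTB, and the libraries of these groups overlapped. Those of the fatty acid branch lay between −0.12 ± 0.10 (SD, n = 4) in ATP8 and −0.017 ± 0.049 (SD, n = 4) in ND5, which overlapped as well. COX1 replicate 4 stood apart from its group, with 0.17 against −0.10, −0.064 and −0.072 in replicates 1 to 3. The deepest library, COX3 replicate 4, was the highest of its group in both branches (0.065 and 0.030), where COX3 replicate 3 was the lowest of batch 2 in both (−0.13 and −0.19). Fitted within a batch, the median of the sterol genes in the mean of treatments was −0.088 in batch 1 and −0.013 in batch 2, and that of the fatty acid genes −0.12 and −0.034, with 0 members called in either batch. Without COX1 replicate 4 or without COX3 replicate 4, 0 of 341 tests were called as well, and the median of the 11 per-treatment medians of the sterol genes was −0.038 and −0.042 in this order, beside −0.038 with all libraries. Without control replicate 1 it was 0.0022.

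**Figure D4:**
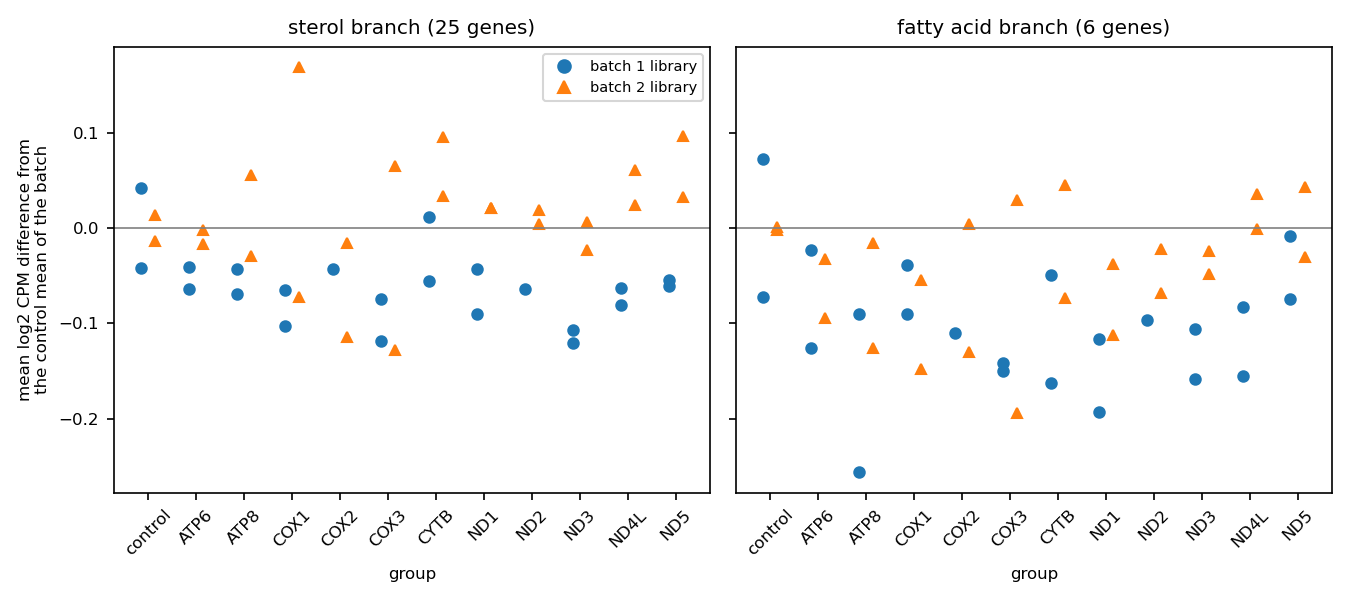
Mean log2 CPM difference from the controls of the same batch over the 25 sterol genes (1 panel) and the 6 fatty acid genes (1 panel), per library (points, coloured by batch) in the 12 groups. Treated libraries of batch 1 lie below 0 except CYTB replicate 1 in the sterol panel, and COX1 replicate 4 is the highest point of the sterol panel (0.17).

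More members differed between the 2 batches, whose days and reagents were not the same, than in any treatment. The batch term of the fit called 24 of 31 members, where 57.1% of all genes were called (29.2% higher and 27.9% lower in batch 2). Of these members 21 were higher and 3 lower in batch 2. SREBF1 had the largest difference, at 0.42 (SE 0.031, 95% interval 0.35 to 0.48, adjusted p = 6.56e-17): batch 1 libraries held 33.5 to 43.3 CPM and batch 2 libraries 38.5 to 55.8 CPM. TM7SF2 (0.38), HMGCS1 (0.33), SCD (0.32), FADS2 (0.27), FASN (0.24), STARD4 (0.24), SREBF2 (0.23), SCAP (0.22), IDI1 (0.18), SQLE (0.17), INSIG1 (0.15) and ELOVL6 (0.13) were higher too, and SC5D (−0.19) and ACAT2 (−0.13) lower, and GGPS1 was lower as well. The median difference was 0.13 over the sterol genes and 0.20 over the fatty acid genes, beside 0.0087 over all genes tested. MSMO1, CYP51A1 and PMVK were not called (0.064, 0.11 and −0.0049), nor were ACACA, EBP, MVK and INSIG2.

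After group and batch means were subtracted, some members still varied together between libraries, and others ran opposite. Over the 46 libraries the median Pearson correlation was 0.23 for the 300 pairs of sterol genes (214 above 0, range −0.81 to 0.87). It was 0.41 for the 15 pairs of fatty acid genes and 0.23 for pairs between the branches, beside −0.0010 for all pairs of tested genes. Among all pairs of genes with a mean of at least 10 CPM, these medians lay at percentiles 77.3, 91.4 and 76.9 in this order. Points of 1 correlation share the library, its depth and its base composition, so these values are descriptions. HMGCS1, IDI1, SQLE, INSIG1, SCD and FDFT1 formed a set, picked after the values were seen, in which all 15 pairs lay between 0.56 and 0.87. IDI1 and INSIG1 had the highest correlation, 0.87 (0.88 after removal of the GC trend), followed by HMGCS1 and IDI1, 0.87 (0.79 after removal of the GC trend), and SQLE and INSIG1, 0.85 (0.84 after removal of the GC trend). Within batch 1 the sterol median was 0.13 (percentile 62.1) and within batch 2 0.32 (percentile 77.6), and without the deepest library it was 0.20 (percentile 74.0). COX1 replicate 4, the library with the fewest counts, had the highest mean residual over HMGCS1, IDI1, SQLE and INSIG1 (+0.28 on the log2 scale). ATP6 replicate 1 was next (+0.13). COX1 replicate 3 (−0.19) and COX2 replicate 3 (−0.19) had the lowest. The correlations were not taken without COX1 replicate 4. With group and batch means subtracted, the mean of the scaled values of these 4 genes correlated with the share of counts in mtDNA-encoded genes at 0.46. Its correlation with log10 total count was 0.063. The cause of this covariation was not tested.

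A second pattern of covariation followed base composition. For each library, log2 CPM minus the gene's mean over libraries was regressed on transcript GC content, over genes with a mean of at least 1 CPM. Group and batch means were subtracted from the slope. The correlation of each member's residual with this slope was then taken over the 46 libraries. For 10 members with under 45% GC the median correlation was −0.58, for 9 members between 45 and 55% it was 0.026, and for 12 members over 55% it was 0.57. The slope is itself a fit to GC content, so opposite signs at low and high GC are built into this measure. The values describe the members only. SREBF1 (0.85), SCAP (0.84), LSS (0.82) and FASN (0.80) followed the slope most closely, and STARD4 (−0.81) and SC5D (−0.79) ran opposite. CYP51A1, at 41.5% GC, was at 0.39, against the sign of its GC class. The mean of HMGCS1, IDI1, SQLE and INSIG1 was at −0.39. The correlation of SREBF1 and SCAP was 0.74 (0.12 after removal of the GC trend) and that of SCAP and FASN 0.76 (0.31 after removal of the GC trend), while that of FADS2 and SCD was 0.73 (0.85 after removal of the GC trend). Of 465 member pairs, 23 were above 0.7 and 5 below −0.7, and 18 and 0 were after removal of the trend. The share of all gene pairs beyond these limits was not taken, so the counts describe the members only.

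Other genes of sterol and lipid handling, 19 in a separate list, were tested in the same fit. None was called in any of the 11 treatments, in their mean or across groups. Between batches 11 of 19 were called, a share close to the 57.1% of all genes, and their values are given as a description. TMEM97, a sterol-regulated membrane protein (0.18), LPIN1, a phosphatidate phosphatase (0.19), ACSS2, the cytosolic acetyl-CoA synthetase (0.15), LPCAT3, an acyltransferase of phospholipid remodelling (0.10) and ACSL3, an acyl-CoA synthetase (0.072) were higher in batch 2. NPC1 and NPC2, which release cholesterol from lysosomes, were lower (−0.31 and −0.25), as were the malic enzyme ME1 (−0.19), the sterol-binding protein OSBP (−0.16) and the cholesterol esterifying enzyme SOAT1 (−0.084). MBTPS1, the protease that starts SREBP cleavage, was lower too (−0.050). Outside both lists, the genes whose residuals most resembled the mean of the sterol branch over the 46 libraries were the mitochondrial isocitrate dehydrogenase IDH2 (r = 0.85), the ribosomal protein gene RPL13A (0.85), the mitochondrial kinase NME4 (0.84), RPL3 (0.82), also ribosomal, and PYCR1 of proline synthesis (0.81). HTRA1 (0.80), IMPDH2 (0.80), MAOA (0.80) and TMEM255A (0.79) followed. The sterol members themselves correlated with the mean of the other members of their branch at −0.39 (SC5D) to 0.84 (FDFT1). Here the points again share the library, its depth and its base composition.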

How the data were processed

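Poly(A) RNA of 46 libraries was sequenced on a NovaSeq X Plus instrument, single-end by the sample records and paired-end by the study's methods. The authors deposited raw counts of reads per gene with a gene length in bases, on GRCh38.p12 per the labels, while the aligner, the counter and its strand setting are not given in the sources used here. The authors' own analysis used R 4.3.0, DESeq2 1.40.2 and limma 3.56.2. Here counts were fitted in R 4.3.3 with edgeR 4.0.16 (TMM factors, filterByExpr with a minimum count of 10, group plus batch, quasi-likelihood F test, Benjamini-Hochberg adjustment over 20272 genes, 95% intervals) after a test on simulated data. CPM are TMM-scaled except for the cell markers, overlapping genes and pseudogenes, log2 CPM has a prior count of 2, and RPKM uses the deposited length. The transcript GC trend was a spline with 5 degrees of freedom per library. Limma 3.58.1 and DESeq2 1.42.0 served in alternatives. Members and lists were chosen with earlier results of these data known. Named in full were members called between batches (the 12 with the lowest p across groups), 8 listed genes and the lowest p of each treatment. Of the 10 genes most like the sterol mean, 1 is not reported here.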

Additional observations from a re-analysis of the deposited data

Results flagged for a closer look

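In 98 sets of 4 libraries (8 members in the groups of 4, and both branches in the treatments with 4 libraries), 5 had 1 library whose gap to the nearest of the other 3 was above Dixon's 95% critical value, as a share of the range, which chance gives in about 1 of 20. COX1 replicate 4, the library with the fewest counts, stood apart in the sterol branch. It was at 0.17 in log2 CPM difference from the controls against −0.10 to −0.064 in the other COX1 libraries. The same library stood apart in INSIG1, at 228 CPM against 168 to 175 CPM. ATP6 replicate 2 was low in INSIG1, at 138 CPM against 174 to 176 CPM. Control replicate 2 was low in SREBF2, at 182 CPM against 206 to 211 CPM, and this library enters each comparison with control. COX3 replicate 4, the deepest library, was high in FADS2, at 109 CPM against 75.5 to 77.0 CPM. These sets take libraries of both batches together.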

How the results depend on the processing

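Of 341 member tests in the treatments, 0 were called under 14 of 21 alternatives, each replicate number, control library, COX1 replicate 4 and COX3 replicate 4 left out among them. Called were 3 tests with a replicate block (1 sterol, 2 fatty acid), 2 with DESeq2 (2 sterol), 11 without a filter on low counts (8 sterol, 3 fatty acid), 1 at a mean of at least 10 CPM (sterol), 1 in batch 2 alone (sterol), 2 with DESeq2 on batch-corrected counts (2 sterol) and 3 after removal of the GC trend (2 sterol, 1 fatty acid). In the same order 0.4, 0.977, 0.416, 0.64, 0.102, 1.01 and 0.345% of all tests were called. MSMO1 in COX2 was called in 5 of these settings, at −0.36 to −0.35, and STARD4 in ND4L in 3. Across groups the count went from 0 to 2 with the block, 3 with DESeq2, 9 without a filter, 3 with DESeq2 on batch-corrected counts and 2 after removal of the GC trend, where 1.57, 4.1, 2.22, 4.7 and 1.07% of all genes were called. In the mean of treatments it went from 0 to 1 under these 5 settings, FADS2 for GC and SCD for the rest. The block result rests on a shared number only: over 242 pairs of same-numbered libraries of different groups the mean correlation was −0.014, and none was above 0.1. Over 243 pairs of the same batch with other numbers the mean was −0.046, and none was above 0.1 either. The median of the 11 per-treatment medians of the sterol genes, −0.038, ran from −0.051 to 0.018 with libraries left out, turned to 0.018 without replicate 1, and was 0.0022 without control replicate 1 and 0.0020 in batch 2 alone and −0.065 in batch 1 alone. That of the fatty acid genes, −0.081, ran from −0.10 to −0.049 and was −0.12 in batch 1 alone. Between batches 22 to 27 members were called, beside 24.4 to 66.8% of all genes. Of the values of tracked estimates (the lowest p of each treatment, members with an unadjusted p under 0.05 in the mean of treatments and calls between batches), 844 kept their side of the threshold, 18 passed it and 5 lost it (GGPS1 and HSD17B7 between batches), and none of these turned sign. Others did, such as CYP51A1 in ND3, at −0.27 in batch 1 alone. The cause of these moves was not tested. The settings with DESeq2 on batch-corrected counts, with the GC trend removed and without COX1 or COX3 replicate 4 were chosen after seeing the data.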

Other observations

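Among the other genes of sterol handling, MYLIP, a ubiquitin ligase that targets lipoprotein receptors and is induced by oxysterol-sensing LXR factors, was looked at after its values were seen. Its estimate in COX1 was −0.31 (SE 0.072, 95% interval −0.45 to −0.16, edgeR adjusted p = 0.0970). ACSL3, also looked at after its values were seen, had estimates of −0.19 in COX2 (edgeR adjusted p = 0.0930) and −0.16 in ND4L (edgeR adjusted p = 0.128). In COX2 and ND4L, 13.6 and 14.1% of all genes had an unadjusted p under 0.05, beside 9.79% of the tests in all 11 treatments.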
